A study of Homo sapiens with 3 samples.

Results

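The genes described here are the 4 inhibitor of DNA binding genes ID1, ID2, ID3 and ID4 and 6 genes of the BMP-SMAD pathway, the receptors BMPR1A and BMPR2, the signal transducer SMAD1 and the feedback inhibitors BAMBI, SMAD6 and SMAD7. They were taken by symbol, 10 of the 22499 genes with a symbol in the single-cell count tables. The symbols were chosen with these same UMI counts in view, so every level, ratio and correlation below is a description and carries no test. In the GENCODE annotation on GRCh37 the receptors and SMAD1 lie with BMPR1A at chr10:88516353-88692582, BMPR2 at chr2:203241050-203432474 and SMAD1 at chr4:146402346-146480328, the inhibitors with BAMBI at chr10:28966439-28971861, SMAD6 at chr15:66994574-67075187 and SMAD7 at chr18:46446223-46477335, and the ID genes with ID1 at chr20:30193086-30194318, ID2 at chr2:8818975-8824591, ID3 at chr1:23884417-23885992 and ID4 at chr6:19837601-19842428. ID3 and SMAD7 are on the minus strand and the others on the plus strand.

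The study grew spheroids of CAMA-1, an estrogen receptor positive breast cancer cell line, from 2000 plated cells. The parental cells, called sensitive, carried the fluorescent protein mVenus, and a derived line selected by long growth in the CDK4/6 inhibitor ribociclib, called resistant, carried mCherry. In all, 3 spheroid cultures were profiled, namely sensitive cells alone (100% of the plated cells), a coculture plated with 50% sensitive cells, and resistant cells alone (0% sensitive). All 3 received 1 µM ribociclib, labelled as given with DMSO, and were harvested and frozen on day 11. There was 1 library per culture and 1 resistant line, with no untreated culture, so an effect of the drug cannot be told apart from anything else the cultures share. In the coculture the authors assigned each cell to a lineage by its transgene, which gives the 4 populations compared here.

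Bone morphogenetic proteins (BMPs) are secreted ligands that bring type II receptors such as BMPR2 together with type I receptors such as BMPR1A. The active receptors phosphorylate SMAD1, SMAD5 and SMAD9, which enter the nucleus with SMAD4 and induce the ID genes, the best known direct targets of the pathway. ID proteins lack a DNA-binding domain and hold E proteins and other helix-loop-helix factors off DNA, and in many tissues they go with undifferentiated or proliferating states. The same signal induces its own brakes, since SMAD6 and SMAD7 block receptors and SMAD complexes from inside the cell and BAMBI is a decoy receptor without a kinase domain.

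The promoters of the 4 genes that differed by over 2-fold between sensitive coculture and sensitive monoculture cells are shown because these genes shared the direction of the difference, with ID2 only just past the limit. Each runs 5′ to 3′ from 250 bases before to 50 bases after the start of the gene in RefSeq, build GRCh38.p14. Capitals mark GGCGCC and GGAGCC, GC-rich letters known from BMP-responsive elements, on either strand (GGAGCC on the opposite strand reads GGCTCC, and GGCGCC reads the same on both).
ID1 (chr20:31605039-31605338, plus strand): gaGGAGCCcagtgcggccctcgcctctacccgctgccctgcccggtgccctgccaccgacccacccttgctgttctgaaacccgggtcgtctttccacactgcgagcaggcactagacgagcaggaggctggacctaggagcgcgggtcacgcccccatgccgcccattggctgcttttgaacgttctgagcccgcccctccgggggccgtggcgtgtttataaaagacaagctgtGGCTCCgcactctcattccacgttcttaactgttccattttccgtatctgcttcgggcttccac
ID2 (chr2:8681806-8682105, plus strand): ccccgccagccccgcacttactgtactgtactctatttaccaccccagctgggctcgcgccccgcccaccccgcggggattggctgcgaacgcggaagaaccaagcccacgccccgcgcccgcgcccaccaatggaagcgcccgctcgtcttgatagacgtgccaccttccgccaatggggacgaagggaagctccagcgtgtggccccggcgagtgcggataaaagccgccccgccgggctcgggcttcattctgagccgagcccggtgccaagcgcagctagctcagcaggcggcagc
ID3 (chr1:23559452-23559751, minus strand): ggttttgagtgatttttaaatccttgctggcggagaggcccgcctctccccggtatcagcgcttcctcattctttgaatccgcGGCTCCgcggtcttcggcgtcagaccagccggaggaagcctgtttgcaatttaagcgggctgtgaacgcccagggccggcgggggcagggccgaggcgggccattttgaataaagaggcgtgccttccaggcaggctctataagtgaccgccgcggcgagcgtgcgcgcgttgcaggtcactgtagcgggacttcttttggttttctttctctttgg
BAMBI (chr10:28677271-28677570, plus strand): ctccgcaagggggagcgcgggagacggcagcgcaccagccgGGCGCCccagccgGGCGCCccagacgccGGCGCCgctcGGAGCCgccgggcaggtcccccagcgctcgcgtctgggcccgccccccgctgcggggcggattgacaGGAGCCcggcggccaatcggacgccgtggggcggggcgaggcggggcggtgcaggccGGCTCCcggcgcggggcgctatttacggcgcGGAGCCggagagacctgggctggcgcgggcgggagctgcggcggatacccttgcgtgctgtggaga
BAMBI held 3 copies of GGCGCC, which 19.2% of all 35116 promoter windows of that length contained at least once, and 4 of GGAGCC, contained in 36.0% of the windows. ID1 held 2 copies of GGAGCC, ID3 held 1, and ID2 held neither motif. CAGAC, the core letters of a SMAD-binding element, occurred 2 times in BAMBI, 1 time in ID3 and not in ID1 or ID2, against 45.3% of all windows. The E-box CANNTG, the site type of the factors that ID proteins restrain, occurred 1 time in ID2 and in none of the other 3 windows, against 68.7% of all windows. GGCGCC and GGAGCC were not confined to these 4 genes. BMPR2 held 1 copy of GGCGCC and 2 of GGAGCC, and 1 window of SMAD1 held 2 of each. SMAD6 held 3 copies of GGAGCC, and BMPR1A held neither motif. All of these are letter matches in a short window, and the described BMP element of ID1 lies farther upstream.

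The annotation held 3329 sensitive cells grown alone and 2059 in coculture, and 6292 resistant cells in coculture and 7557 grown alone, with 70896822 to 270891547 UMIs per population. A UMI counts 1 captured transcript molecule. Median UMIs per cell were 27622, 34056, 30686 and 35443 in that order, and the median mitochondrial share of UMIs was 20.9%, 17.3%, 15.2% and 15.4%. The share of cells called G1 was 89% in sensitive monoculture and 49.7% to 55.3% in the other populations. Sensitive cells held 0 mCherry UMIs and resistant cells 0 mVenus UMIs, and coculture cells had been picked by these counts. In the monocultures 1071 sensitive and 2050 resistant cells had no UMI of either transgene. In the coculture 200 sensitive and 146 resistant cells lay in expression clusters made up mostly of the other lineage. Between 7 and 17 cell barcodes were shared by a pair of libraries. The 7 luminal epithelial markers summed to 7659 to 9605 CPM (UMIs scaled to a common total per population) in the 4 populations. Summed immune and endothelial markers stayed at or below 1.16 CPM in all 4. Of the 5 fibroblast markers LUM was at 0, DCN had 1 UMI in all, PDGFRB was at or below 0.048 CPM and COL1A1 was at 2.4 to 3.61 CPM in the 4 populations, while COL3A1 reached 35.2 CPM in sensitive monoculture and 18.7 in sensitive coculture, against 2.12 and 0.181 in resistant coculture and monoculture. In the coculture library an estimated 7.43% of the RNA in barcodes with 2 or more mVenus UMIs came from resistant cells, from 182 mCherry UMIs in 1263 barcodes. Sensitive coculture cells held 0 mCherry UMIs, so the share was not measured in those cells.

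Levels are given as CPM of the UMIs summed over a population, with 95% exact Poisson intervals that cover counting error only. Replicates are lacking, so spread between cultures cannot be given with 1 library per culture. Ratios are log2 of (CPM + 1), which understates differences of genes near 1 CPM. Where 4 values are given without names, they are for sensitive cells alone, sensitive cells in coculture, resistant cells in coculture and resistant cells alone.

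ID1, a target that BMP signals induce within hours, stood at 586 CPM (interval 581 to 591) in sensitive cells alone and 261 (258 to 265) in those in coculture, with 382 (380 to 385) in resistant cells in coculture and 301 (299 to 303) in those alone. Its level was thus lowest in the sensitive cells grown beside resistant cells and highest in the sensitive cells grown alone, and no intervals overlapped. ID2, a close relative that also restrains retinoblastoma family proteins, followed the same order with 91.8 CPM (89.9 to 93.7), 45.2 (43.7 to 46.8), 69.4 (68.3 to 70.6) and 54.9 (54 to 55.8). ID3 was ordered differently, by lineage first. It measured 938 CPM (932 to 944) in sensitive cells alone and 388 (383 to 392) in those in coculture, with 329 (327 to 332) in resistant cells in coculture and 275 (273 to 277) in those alone. ID4, the remaining family member, was sparse at 3.19 CPM (2.84 to 3.57), 1.83 (1.53 to 2.18), 3.48 (3.22 to 3.74) and 2.77 (2.58 to 2.98) in that order. Its lowest level was again in sensitive coculture, while the intervals of sensitive monoculture overlapped those of both resistant populations. The 4 ID genes together made up 1619 CPM in sensitive cells alone and 696 in those in coculture, with 784 in resistant cells in coculture and 634 in those alone.

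BAMBI, the decoy receptor, stood at 41.4 CPM (40.1 to 42.7) in sensitive cells alone and 15.3 (14.4 to 16.2) in those in coculture, with 7.19 (6.82 to 7.57) in resistant cells in coculture and 6.11 (5.82 to 6.41) in those alone. Like ID3 it was ordered by lineage first, with each lineage's coculture cells between the extremes. SMAD6, the inhibitor that acts mainly on BMP receptors, had 1.81 CPM (1.55 to 2.1) in sensitive cells alone and 0.522 (0.367 to 0.719) in those in coculture, with 0.451 (0.363 to 0.554) in resistant cells in coculture and 0.325 (0.261 to 0.4) in those alone. These rest on 174, 37, 90 and 88 UMIs, and only the interval of sensitive monoculture overlapped none of the others. The ratio of resistant coculture to resistant monoculture was 1.39, with a counting interval of 1.02 to 1.88. SMAD7, which restrains both BMP and TGF-beta receptors, lay at 3.97 CPM (3.58 to 4.39), 3.33 (2.92 to 3.78), 3.58 (3.32 to 3.85) and 3.3 (3.08 to 3.52) in the same order of populations. The intervals of neighbouring levels overlapped. Its ratio had a counting interval of 0.71 to 0.989 in sensitive coculture over sensitive monoculture, and of 0.736 to 0.939 in resistant over sensitive monoculture. The inhibitors therefore did not share a pattern, with BAMBI and SMAD6 high in sensitive monoculture and SMAD7 nearly level.

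BMPR2, the type II receptor, measured 30.3 CPM (29.2 to 31.4) in sensitive cells alone and 20.7 (19.7 to 21.8) in those in coculture, with 21.4 (20.8 to 22.1) in resistant cells in coculture and 16.3 (15.8 to 16.8) in those alone. BMPR1A, a type I receptor, measured 10.8 CPM (10.1 to 11.5), 9.55 (8.84 to 10.3), 10.4 (9.93 to 10.8) and 7.73 (7.4 to 8.06) in the same order. Both receptors were lowest in resistant monoculture, and the coculture levels of the lineages overlapped. SMAD1, a receptor-activated SMAD, was ordered as ID3 was, at 11.9 CPM (11.2 to 12.6) in sensitive cells alone and 9.82 (9.1 to 10.6) in those in coculture, with 7.45 (7.07 to 7.84) in resistant cells in coculture and 6.19 (5.9 to 6.49) in those alone.

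**Figure D1:**
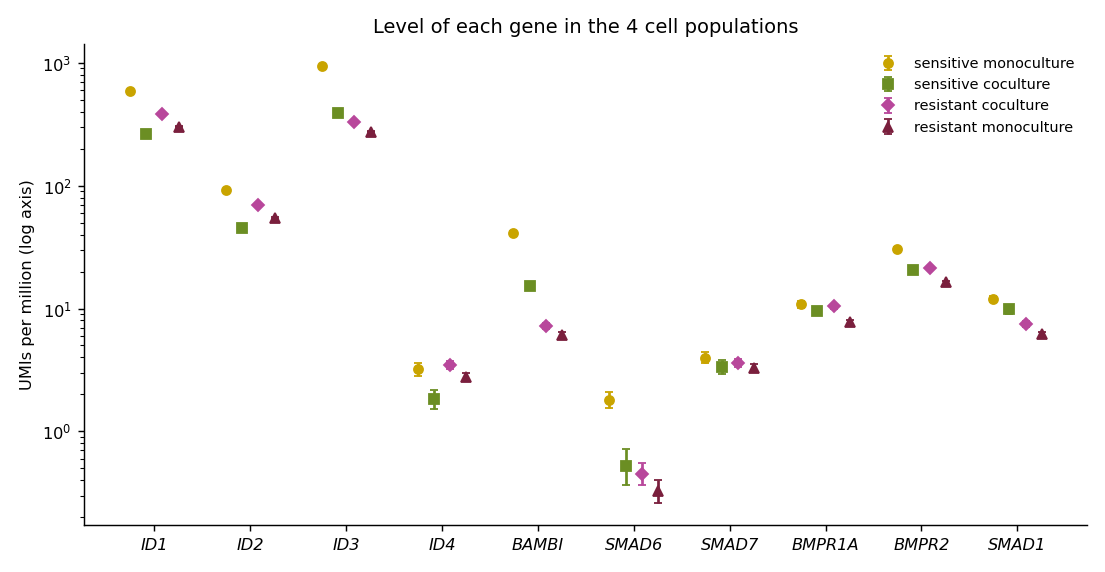
Level of each of the 10 genes in CPM (log axis) in the 4 populations, with 95% Poisson intervals of the summed UMIs as bars, often smaller than the symbol. ID1, ID2 and ID4 were lowest in sensitive coculture cells. The other genes were highest in sensitive monoculture and lowest in resistant monoculture, with some overlap of intervals for SMAD6, SMAD7 and BMPR1A.

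The first comparison asked how sensitive cells differed when grown beside resistant cells. BAMBI was 2.7-fold lower in coculture (95% counting interval 2.53 to 2.9), ID3 2.42-fold (2.39 to 2.45), ID1 2.24-fold (2.2 to 2.28) and ID2 2.03-fold (1.95 to 2.11). These 4 of the 10 genes were past 2-fold, all lower, against 1.04% of 12327 genes with at least 50 UMIs that were past 2-fold lower and 2.56% past it in either direction. ID2 lay just inside the limit, at a log2 ratio of -1.004, and fell short of it under TMM scaling, median of ratios scaling and a pseudocount of 10 CPM, each of which left 3 genes. At a limit of 1.5-fold 5 of the 10 genes were past it, against 11% of genes. SMAD6 was 3.46-fold lower on the plain CPM scale (2.42 to 5.08), from few UMIs, and its log2 ratio with 1 CPM added was -0.88. The remaining log2 ratios were -0.56 for ID4, -0.52 for BMPR2, -0.26 for SMAD1, -0.20 for SMAD7 and -0.16 for BMPR1A. All 10 ratios were below 0, as were 56.4% of all tested genes. The median over the 10 genes was -0.72 and over all tested genes -0.05.

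In the resistant lineage the differences between coculture and monoculture were smaller and of the other sign. None of the 10 genes was past 2-fold, against 0.038% of 13156 genes. The log2 ratios were 0.34 for ID1, 0.33 for ID2, 0.26 for ID3, 0.25 for ID4 and 0.20 for BAMBI. For BMPR1A and BMPR2 they were 0.38 and 0.37, for SMAD1 0.23, for SMAD6 0.13 and for SMAD7 0.09. Thus 10 of 10 were above 0, against 56.7% of all tested genes, with a median of 0.25 beside 0.03 over all genes. ID1 was 1.27-fold higher in coculture (1.26 to 1.28) and the interval of SMAD7 reached below 1 (0.982 to 1.2). This comparison and the preceding one share the coculture library.

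Between the monocultures, resistant cells had 6.76-fold less BAMBI (6.39 to 7.17), 5.57-fold less SMAD6 (4.28 to 7.28) and 3.41-fold less ID3 (3.38 to 3.44). These were the 3 genes past 2-fold, where 4.11% of 12970 genes were past it lower and 6.28% in either direction. SMAD6, at under 2 CPM in both, had a log2 ratio of -0.19 with a pseudocount of 10 CPM, which left 2 genes. ID1 lay just outside the limit with a log2 ratio of -0.96, followed by BMPR2 at -0.85, SMAD1 at -0.85, ID2 at -0.73, BMPR1A at -0.43, SMAD7 at -0.21 and ID4 at -0.15. In cells with 2 or more transgene UMIs ID1 was past 2-fold, at -1.08. Receptors, SMAD1 and ID genes were thus all lower in the resistant line, as were 57.8% of all tested genes, and the median of the 10 was -0.85 beside -0.07 over all genes. At a limit of 1.5-fold, 7 of the 10 were past it, against 19.2% of genes.

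Within the coculture, where both lineages shared medium, handling and library, none of the 10 genes was past 2-fold, against 1.76% of 12774 genes. BAMBI lay just outside it at a log2 ratio of -0.99 in resistant over sensitive cells, and was 2.13-fold lower (1.964 to 2.303) on the plain CPM scale. ID1, ID2 and ID4 were higher in the resistant cells, by 0.55, 0.61 and 0.66, and ID3 was lower, by -0.23, so the ID genes did not keep a common direction here. SMAD1 was at -0.36, and BMPR1A, BMPR2, SMAD6 and SMAD7 were within 0.11 of 0 with counting intervals that included a ratio of 1. BAMBI crossed 2-fold under several other settings, given below under the dependence on processing. At a limit of 1.5-fold BAMBI, ID2 and ID4 were past it, against 6.14% of genes.

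**Figure D2:**
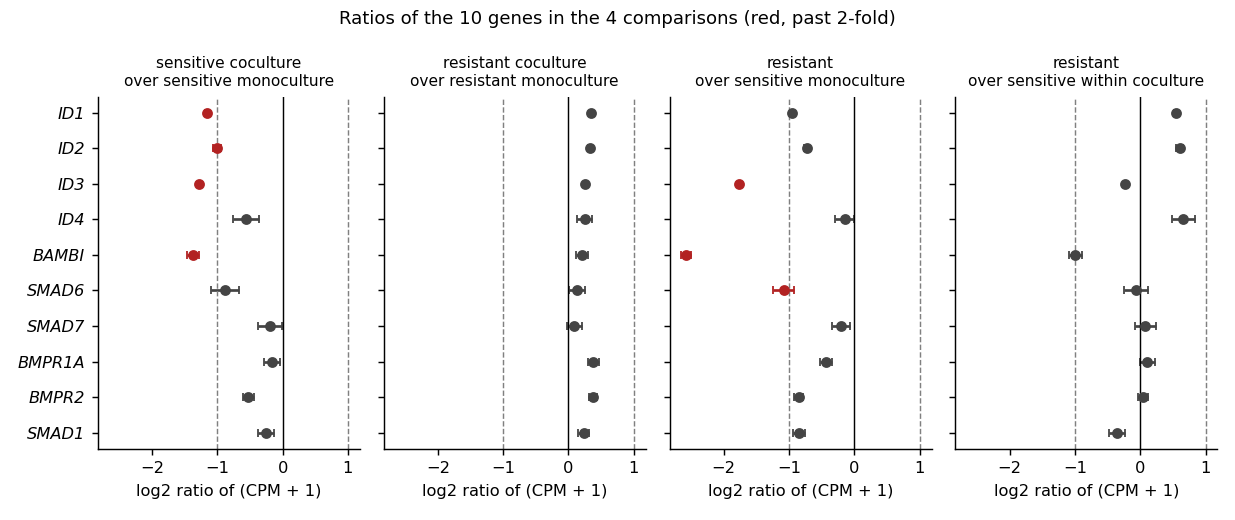
Log2 ratio of (CPM + 1) of each gene in the 4 comparisons, with 95% counting intervals as bars, dashed lines at 2-fold and red points past it. BAMBI, ID3, ID1 and ID2 were past 2-fold in sensitive cells, BAMBI, ID3 and SMAD6 between the monocultures, and no gene in the other panels.

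Because G1 cells made up 89% of the sensitive cells grown alone and 55.3% of those in coculture, each gene was also read within the phases the authors called. ID1 in sensitive cells was 579 CPM in monoculture against 257 in coculture in G1, 641 against 263 in S, and 616 against 269 in G2M. The log2 ratios of -1.17, -1.28 and -1.19 lay near the -1.16 of all cells, so the difference was present within each phase. For ID3 they were -1.23, -1.23 and -1.24 in G1, S and G2M, for ID2 -1.09, -0.90 and -0.93, and for BAMBI -1.44, -1.28 and -1.41. In resistant cells ID1 was higher in coculture by 0.34, 0.35 and 0.35 in the 3 phases.

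Phase itself went with several of the genes. BAMBI was higher in G2M than in G1 in all 4 populations, at 58.9 against 41 CPM in sensitive cells alone and 21.6 against 14.5 in those in coculture, with 10.5 against 6.09 in resistant cells in coculture and 9.6 against 5.11 in those alone. The ratio of G2M to G1 ran from 1.44 (1.29 to 1.6) in sensitive monoculture to 1.88 (1.68 to 2.11) in resistant monoculture. In S phase BAMBI was below its G1 level in both sensitive populations, at 27.8 and 10.8 CPM, and about equal to it in the resistant ones. BMPR2 had its highest level in G1 in every population, with S phase at 0.609 to 0.795 of G1. BMPR1A peaked in G2M in all 4 populations, for example at 12.4 CPM against 9.68 in G1 in resistant coculture. ID3 was highest in G1 in all 4 populations, while ID1 was highest in G1 only in the resistant ones, where G2M stood at 0.824 of G1 in coculture and 0.818 in monoculture. In sensitive cells the G2M level of ID1 was 1.06 times that of G1 in monoculture and 1.05 times in coculture.

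**Figure D3:**
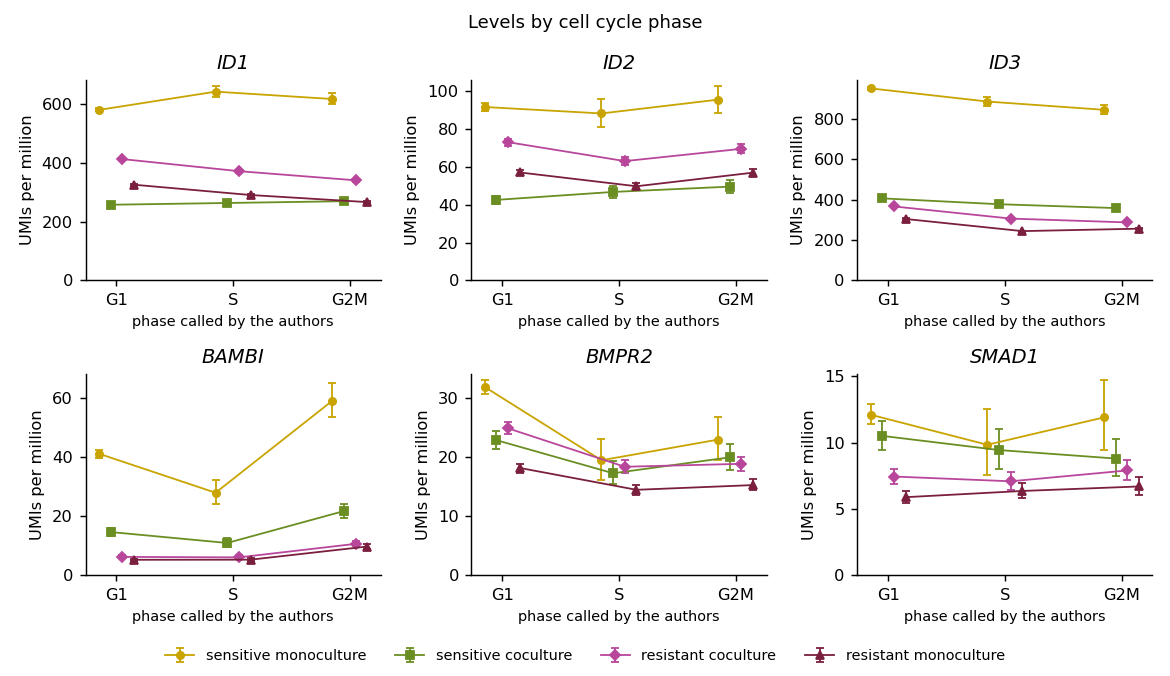
Levels of 6 of the genes in CPM by phase in the 4 populations, with 95% Poisson intervals as bars. The populations kept their order for ID3 and BAMBI in all 3 phases, while for ID1 the lowest level was that of sensitive coculture cells in G1 and S and of resistant monoculture cells (266 CPM, beside 269) in G2M, and BAMBI was higher in G2M than in S in each of them.

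The authors divided the cells into 14 clusters, made from these same expression values, so levels by cluster are descriptive. Where 50 or more cells of both sensitive populations fell into a shared cluster, the populations still differed. In cluster 3, which held 1087 coculture and 267 monoculture sensitive cells, ID1 was 239 CPM in coculture and 523 in monoculture, ID3 381 and 915, and BAMBI 12.2 and 36.4. In cluster 7, nearly without G1 cells in either population, ID1 was 281 and 628 CPM, ID3 382 and 852, and BAMBI 19 and 43.5. In cluster 4, with 84 coculture and 1945 monoculture cells, ID1 was 336 and 627 CPM and BAMBI 21.7 and 35.4. ID1, ID2, ID3, ID4, BAMBI, SMAD6 and BMPR1A were lower in coculture in 3 of 3 clusters, a result that 30.2% of all tested genes also gave. For ID4 and BMPR1A the counting intervals included a ratio of 1 in each of the 3 clusters, and SMAD6 in cluster 4 rests on 1 coculture UMI. Of the members of at least 5 CPM it was 5 of 7, against 34.6% of genes of that level. For ID1, ID2, ID3 and BAMBI the log2 ratios in these clusters ran from -1.502 to -0.68. The log2 ratio of SMAD1 was 0.30 in cluster 3, 0.25 in cluster 4 and -0.07 in cluster 7, with counting intervals that included a ratio of 1 in all 3, so the lower level seen over all cells was not detectable within clusters. The same held for BMPR2, at 0.12, -0.32 and -0.15 in clusters 3, 4 and 7.

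Resistant cells of both cultures met in 9 clusters. ID1 was higher in coculture in 9 of 9, with log2 ratios from 0.31 to 0.79, ID2 in 9 of 9 from 0.17 to 0.66, ID3 in 9 of 9 from 0.12 to 0.42 and SMAD1 in 9 of 9 from 0.02 to 0.99. The counting intervals included a ratio of 1 for SMAD1 in 6 of the 9 clusters and for ID2 in 2. Of all tested genes 9.89% were higher in every one of these clusters, and 13.7% of those of at least 5 CPM. BAMBI was higher in 5 and lower in 4 of them, with few UMIs in the small ones.

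Among the sensitive monoculture clusters BAMBI had its highest level where ID1 had its lowest, but ID2 and ID3 did not mirror BAMBI. Cluster 8, with 681 sensitive monoculture cells, had the highest BAMBI at 70.2 CPM (66 to 74.5) and the lowest ID1 of the 5 clusters, at 449 CPM (439 to 460). Cluster 4, the largest, had BAMBI at 35.4 CPM (33.9 to 36.9) with ID1 at 627 (621 to 634) and the highest ID3, at 1003 CPM. ID2 in cluster 8 was 96.8 CPM (91.9 to 102), not separable from its highest level of 97.9 (91.5 to 105) in cluster 7. In cluster 7 ID1 was 628 CPM (612 to 645), not separable from that of cluster 4, and BAMBI was 43.5 CPM. BMPR2 and SMAD1 were also highest in cluster 8, at 39.8 and 15.6 CPM. The cells of cluster 8 had a median of 21423 UMIs against 29523 in cluster 4, at the same median mitochondrial share of 21.3%. The part of depth in these levels was not tested. Among resistant coculture cells BAMBI was highest, at 15.6 CPM (11.7 to 20.5), beside 11.2 (10.1 to 12.4) in cluster 2 with overlapping intervals, in the 91 cells that fell into cluster 3, a cluster that otherwise held 1087 and 267 sensitive and 5 resistant monoculture cells. Sensitive cells of that cluster had 12.2 CPM in coculture and 36.4 in monoculture, and whether these 91 cells include barcodes with both lineages was not tested.

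**Figure D4:**
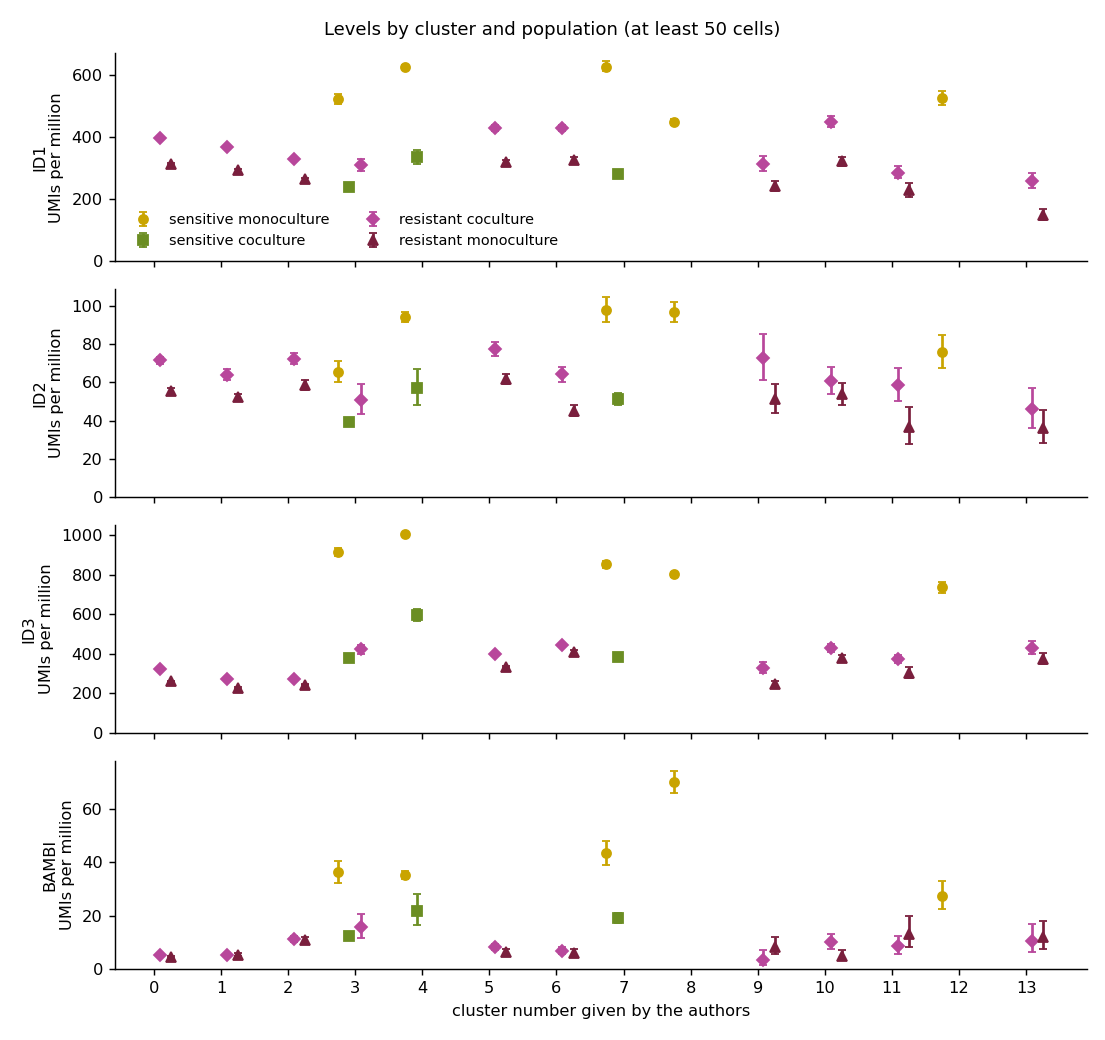
CPM of ID1, ID2, ID3 and BAMBI by cluster and population, where a population had at least 50 cells in the cluster, with 95% Poisson intervals as bars. In clusters 3, 4 and 7 the sensitive coculture cells lay below the sensitive monoculture cells, and in cluster 8 BAMBI reached 70.2 CPM.

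Single cells were compared after thinning every cell to 5000 UMIs. ID1 was then detected in 82.5% of sensitive cells grown alone (Clopper-Pearson interval 81.2 to 83.8) and 57.1% of those in coculture (54.9 to 59.2), with 73% (71.9 to 74.1) and 59.9% (58.8 to 61) of resistant cells in coculture and alone. Without thinning the shares were 96.8%, 91.4%, 96.6% and 91.8%. Detection of ID3 ran from 92.7% in sensitive monoculture through 71.8% and 69.9% in the coculture populations to 59.6% in resistant monoculture. BAMBI was detected in 18.9%, 7.29%, 3.78% and 3.16% of cells in that order, and the intervals of the resistant populations overlapped. The 90th percentile of ID1 was 6 UMIs in sensitive monoculture and 4 in sensitive coculture, and the medians were 2 and 1, so both the middle and the top of the distribution were lower in coculture. The variance of ID1 was 1.93 to 2.46 times its mean and that of ID3 1.87 to 2.37 times, where counting alone gives a ratio near 1. ID4, SMAD6, SMAD7, BMPR1A, BMPR2 and SMAD1 had ratios from 0.969 to 1.04.

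ID1 and ID3 varied together from cell to cell. Pearson r of log2(UMI + 1) was 0.417 over the 3329 sensitive cells grown alone and 0.40 over the 2059 in coculture. It was 0.341 over the 6292 resistant cells in coculture and 0.396 over the 7557 grown alone. Cells of a population share a library, its free RNA and, after thinning, their depth, and no p is given. In sensitive coculture, 80.5% of cells with an ID1 UMI and 60.2% of cells without had an ID3 UMI. ID1 with ID2 gave r of 0.12 to 0.183, and ID2 with ID3 0.073 to 0.141. In G1 cells alone r of ID1 with ID3 was 0.351 to 0.422, and in the largest cluster of each population 0.321 to 0.434.

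For BAMBI no such correlation with the ID genes was seen at this depth. Its r with ID1 was -0.055 in sensitive monoculture and -0.002 to 0.009 in the other populations, and with ID2 and ID3 it lay between -0.024 and 0.04. A second thinning draw gave r with ID1 of -0.068, 0.024, 0.003 and -0.041 in the 4 populations. In sensitive monoculture 17.9% of cells with an ID1 UMI had a BAMBI UMI, against 23.2% of cells without. The shares were 7.57% against 6.9% in sensitive coculture, 3.64% against 4.18% in resistant coculture and 3.25% against 3.04% in resistant monoculture. SMAD7 with ID1, ID2 and ID3 gave r from -0.028 to 0.014. These values are too weak to read in counts this sparse. For SMAD6 and SMAD7, seen in under 2% of thinned cells, r could hardly be large. The same limit applies to BAMBI outside sensitive monoculture, where it was seen in 3.16% to 7.29% of thinned cells.

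Summed levels were therefore compared between cells with and without a SMAD6 UMI, without thinning. In sensitive monoculture ID1 was 766 CPM (742 to 791) in the 167 cells with a SMAD6 UMI and 576 (571 to 581) in the 3162 cells without. It was 423 (388 to 460) against 258 (255 to 262) in sensitive coculture, with 36 cells carrying SMAD6, 531 (505 to 557) against 380 (377 to 383) in resistant coculture, with 90, and 505 (482 to 529) against 299 (297 to 301) in resistant monoculture, with 87. ID1, ID2 and ID3 were higher in cells with SMAD6 in 12 of 12 combinations of gene and population, by 1.24 to 1.72 times. In G1 cells the ratios were 1.22 to 1.94, and against the level expected from the clusters of the same cells 1.23 to 1.71. For cells with a SMAD7 UMI the same ratios were 0.909 to 1.13, for BAMBI 0.941 to 1.21, for ID4 0.959 to 1.2, and for BMPR1A, BMPR2 and SMAD1 0.928 to 1.12. The SMAD6 ratios thus lay above those of the other partners, but narrowly at the lower end, at 1.24 beside 1.21 for BAMBI. They rest on the fewest cells of any partner. Cells within a population are not replicates, and the intervals of the levels leave out spread between cells. Cells with SMAD6 were somewhat deeper, with a median of 41041 against 35386 UMIs in resistant monoculture and 28505 against 27584 in sensitive monoculture. The part of depth was not tested.

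**Figure D5:**
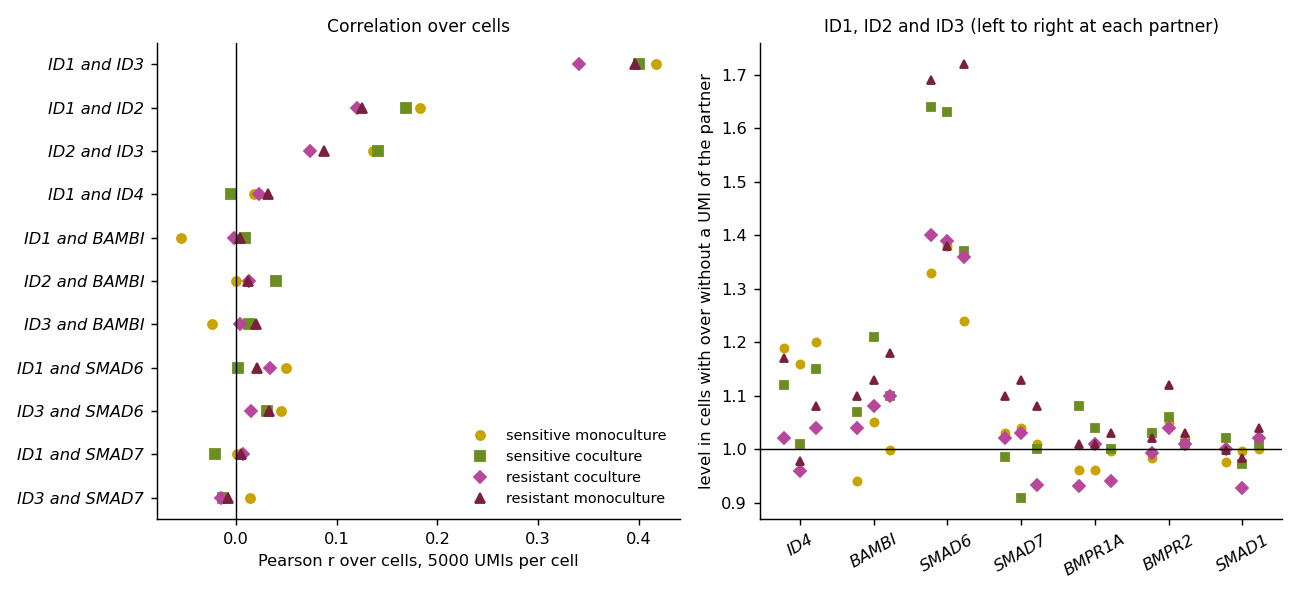
Left, Pearson r over thinned cells for pairs of genes in each population. Right, level of ID1, ID2 and ID3 in cells with a UMI of a partner gene divided by that in cells without. ID1 and ID3 reached r of 0.417, and of the 7 partners SMAD6 alone had all 12 ratios above 1.2.

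Handling measures were only weakly related to the ID genes from cell to cell. Over cells, r of ID1, ID2, ID3 and ID4 with mitochondrial share, depth and the summed immediate early genes lay between -0.08 and 0.069. The 14 immediate early genes, which respond to dissociation and thawing, summed to 2477, 2512, 2650 and 2888 CPM in the order given above. IER3 had the most UMIs of the list, at 1221, 1469, 1486 and 1735 CPM. Of the 14 genes 11 were lower in sensitive coculture than in sensitive monoculture, where 56.4% of all genes were lower, with a median log2 ratio of -0.23 beside -0.05 over all genes. JUNB was at 144 and 79.9 CPM and DUSP1 at 134 and 72.7 in these populations, the direction of the ID genes, and the part of handling in the difference of the ID genes was not tested. None of the 14 was past 2-fold between the sensitive populations, and 2 of 14, ATF3 and BTG2, were past it lower in resistant than in sensitive monoculture, against 4.11% of all genes, at log2 ratios of -1.31 and -1.30.

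Other genes were ranked by likeness to the ID genes among the 4643 genes averaging 20 CPM or more. Over cells, the 5 genes most like ID1 were ID3, ADIRF, DUSP2, ID2 and GSTM3. The r of ADIRF, a small protein first described in fat cells, was 0.271, 0.238, 0.218 and 0.222 in the 4 populations, and that of DUSP2, a phosphatase that inactivates MAP kinases, 0.244, 0.147, 0.189 and 0.2. The same ADIRF and DUSP2 followed ID1 in the list of ID3, before GSTM3 and MYL6. The list of ID2 held ID1, ID3, DUSP2, ADIRF and IGFBP5. Over the 12 averages of population and phase, which come from 3 libraries, DUSP2 was the gene most like both ID1 (r = 0.993) and ID2 (r = 0.954), at 68.7, 24.6, 40.4 and 30.3 CPM in the order given above. ID1 was further followed there by ID2, SEC23B, TGOLN2 and DUSP1, and ID2 by ID1, TRIM24, TGOLN2 and MINDY2. ID3 was most like NCSTN, FKBP1A, STC2, ATP6V0E1 and RBMS1 over these averages, with r of 0.971 to 0.987, and ID1 was not among these 5. FKBP1A encodes FKBP12, which binds type I receptors of the family and holds them inactive, and measured 295, 212, 197 and 194 CPM. STC2, a secreted glycoprotein, measured 163, 44.1, 32.5 and 19.9 CPM.

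For ID4 and BAMBI likeness over cells was weak. The genes most like BAMBI over cells were SOX4, TMSB4X, FTH1, EDN1 and H3F3B, with r of at most 0.134 in any population. Over the 12 averages BAMBI was most like FUNDC1, NUDT4, TRAPPC10, SRP9 and RCC2, with r of 0.972 to 0.986. ID4 was most like PGR, RNF216, THBS1, PIP4K2C and PPFIBP1 over cells, with r of at most 0.088, and like RHOBTB3, CAMK2N1, PPIC, ACAT1 and GSTK1 over the averages.

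The pathway was also read from wider lists, beside the same median over all tested genes given above. These lists include BMPR1A, BMPR2, SMAD1, SMAD6, SMAD7 and BAMBI, so their counts and medians are not separate from the levels described above. Of 13 BMP ligands 3 had at least 50 UMIs, and none was past 2-fold in any comparison on the log2 (CPM + 1) scale. BMP4 had the most UMIs of them, at 6.98 CPM (6.46 to 7.53) in sensitive cells alone and 5.33 (4.81 to 5.9) in those in coculture, with 5.66 (5.33 to 6) in resistant cells in coculture and 5.3 (5.03 to 5.59) in those alone. BMP7 was at 2.52 CPM (2.22 to 2.86) in sensitive cells alone and 1.07 (0.845 to 1.34) in those in coculture. Resistant cells had 1.01 (0.872 to 1.16) in coculture and 0.783 (0.681 to 0.895) alone. On the plain CPM scale it was thus over 2-fold lower in sensitive coculture and in resistant monoculture than in sensitive monoculture. The 1 added CPM keeps its log2 ratios inside the limit. BMP2, a ligand that induces ID genes, had 0 UMIs in all 4 populations, with upper limits of 0.0136 to 0.052 CPM. Of 12 receptors and co-receptors 8 to 10 were tested and none was past 2-fold on the log2 (CPM + 1) scale, with a median of -0.15 in sensitive coculture over monoculture and of 0.20 in resistant coculture over monoculture. Between the monocultures 6 of 10 were lower and 4 higher in resistant cells. BMPR1B, a further type I receptor named after its values were seen, was near 0 in sensitive cells, at 0.0104 CPM (1 UMI) alone and 0.155 (11 UMIs) in coculture, with 0.877 (0.752 to 1.02) in resistant cells in coculture and 0.868 (0.76 to 0.986) in those alone. On the plain CPM scale it was 83.5-fold higher in resistant than in sensitive monoculture (14.8 to 3312) and 5.65-fold higher within the coculture (3.08 to 11.5), where 1 added CPM keeps the log2 ratios at 0.89 and 0.70. The 11 UMIs of sensitive coculture cells were not corrected here for RNA from resistant cells. Among 8 SMAD genes SMAD5, which carries the same signal as SMAD1, had the most UMIs, at 87.5, 96, 99.1 and 69.8 CPM, and SMAD6 was the only member past 2-fold, 1 of 7 tested between the monocultures, against 4.11% of all genes lower. The levels of SMAD5 and of its partner SMAD4, at 8.37, 9.34, 8.68 and 7 CPM, were not lower in sensitive coculture than in sensitive monoculture.

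Among the secreted antagonists and binders, MGP, a matrix protein that can bind BMPs, was higher where the ID genes were lower in sensitive cells. Within the coculture this did not hold, since resistant cells had more MGP with ID1, ID2 and ID4 higher and ID3 lower. Of the 7 tested, 6 were higher in sensitive coculture than in sensitive monoculture, against 43.6% of all genes. MGP measured 404 CPM in sensitive cells alone and 1041 in those in coculture, with 5983 in resistant cells in coculture and 6497 in those alone, and it was the only member of the 7 tested that was past 2-fold between the sensitive populations, against 2.56% of all genes. Chordin (CHRD), which traps BMP ligands, was past 2-fold within the coculture, at 5.74 CPM in resistant and 2.26 in sensitive cells. With MGP these were 2 of 8 tested, against 1.76% of all genes. With the estimated 7.43% of resistant-cell RNA removed, a correction chosen for these genes after seeing the data, MGP in sensitive coculture cells was 645 CPM and its log2 ratio to sensitive monoculture 0.67 in place of 1.36, no longer past 2-fold. CHRD within the coculture then had a log2 ratio of 1.18 in place of 1.05. In sensitive coculture over sensitive monoculture CHRD had -0.048 in place of 0.081, so it was no longer among the 6 that were higher. The 182 mCherry UMIs behind this correction lay outside the sensitive coculture cells, so its size for them was not measured.

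Of 15 other transcripts that BMP signals induce, 12 were tested between the sensitive populations. In coculture 11 were lower, where 56.4% of all genes were, and none was past 2-fold on the log2 (CPM + 1) scale, with a median of -0.47. JUNB is in this list and in that of the immediate early genes, and so counts in both. Between the monocultures 3 of 12 were past it, all lower in resistant cells, against 4.11% of all genes lower, namely DLX2 at a log2 ratio of -1.87, TBX3 at -1.73 and MSX2 at -1.13, all developmental transcription factors. TBX3 ran from 69.7 CPM in sensitive monoculture (68.1 to 71.4) through 46.3 (44.7 to 47.9) and 26.9 (26.1 to 27.6) to 20.3 in resistant monoculture (19.8 to 20.9), the order that ID3 and BAMBI showed. MSX2 did likewise at 25.7, 16.5, 13.8 and 11.2 CPM. HES1, which had the most UMIs of the list and also answers Notch signals, was at 132, 130, 137 and 107 CPM and so did not share that order. On the plain CPM scale some sparse members of the list were over 2-fold lower in sensitive coculture than in sensitive monoculture. DLX3 was at 1.33 CPM (1.07 to 1.62) against 3.63 (3.26 to 4.03), and DLX2 at 1.66 (1.38 to 1.99) against 3.63 (3.26 to 4.03). HEY1 was at 0.226 against 0.53 and SNAI2 at 0.183 against 0.509, from few UMIs. Among 14 intracellular regulators of SMAD signaling, 12 were below 0 between the sensitive populations, against 56.4% of all genes, with a median of -0.20, and BAMBI was the only member past 2-fold. All 14 were above 0 in resistant coculture over monoculture, against 56.7% of all genes, with a median of 0.18.

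The list of E proteins and other helix-loop-helix factors, which is wider than the factors that ID proteins bind, showed no common direction. Of 10 tested, 5 were lower and 5 higher in sensitive coculture over monoculture, none past 2-fold, with a median of 0.02. The E protein gene TCF3 was at 36.2, 38.4, 53.9 and 53.8 CPM in the order given above, and TCF12 at 14.9, 16.6, 15.3 and 13.1. Both were slightly higher in sensitive coculture than in sensitive monoculture, with counting intervals that overlapped only at their ends. For TCF3 they were 37 to 39.9 in coculture and 35 to 37.4 in monoculture, and for TCF12 15.6 to 17.5 and 14.1 to 15.7. MXD4, a repressive partner of MAX, had the most UMIs of the list.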

How the data were processed

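The deposited tables hold raw UMI counts per gene and barcode, which per the study's methods the authors made with Cell Ranger 3.0.2 on GRCh37. The authors' cell annotation, deposited with them, gives the lineage, cell cycle phase, cluster and percent of mitochondrial UMIs of each cell, after their filters on cells, removal of predicted doublets and, in the coculture, a transgene filter, while 1071 sensitive and 2050 resistant monoculture cells carry no transgene UMI. That annotation was used as it stood, and no doublet caller was run here. Of 8643 to 20227 barcodes per library, 3329 to 8351 were annotated and used. UMIs of rows without a symbol, 0.523% to 0.591% per library, were left out.

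UMIs were summed per population and scaled to CPM. Genes with at least 50 UMIs over both populations were compared by the log2 ratio of (CPM + 1), and a log2 ratio of at least 1 in size (2-fold) is called past 2-fold. Intervals at 95% are exact Poisson for levels, exact conditional binomial for folds and Clopper-Pearson for shares, and all cover counting error only. With 1 library per culture no test between conditions was possible. Levels by cluster need 50 cells of a population. Cells were thinned to 5000 UMIs for shares and correlations. Genes named are the 10 members, in each of 8 lists those past 2-fold and the gene with the most UMIs, and the 5 genes most like each ID gene and BAMBI among genes of at least 20 CPM. BMP2, BMP7, BMPR1B, SMAD4, TCF3, TCF12, JUNB, DLX3, HEY1 and SNAI2 were named after their values were seen. The 10 genes and the lists were chosen with earlier results of these data known. The alternatives were edgeR TMM and median of ratios scaling, pseudocounts of 0.1 and 10 CPM, no UMI minimum, subsets of cells, a correction for resistant-cell RNA and a limit of 1.5-fold. Python 3.11.15 with numpy 2.4.6, scipy 1.17.1, pandas 2.3.3 and matplotlib 3.10.9, and R 4.3.3 with edgeR 4.0.16, were used. The ratio, 2-fold call, thinning and correlation steps were tested on simulated data, and the interval steps were not. Promoter windows are from RefSeq on GRCh38.p14, in which all 10 genes matched by symbol.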

Additional observations from a re-analysis of the deposited data

Results flagged for a closer look

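The coculture differences of 9 of the 10 genes had opposite signs in the lineages, lower than monoculture in sensitive cells and higher in resistant cells, with counting intervals that did not include a ratio of 1. Of 12244 genes tested in both lineages, 13.8% did the same, and 15.9% of those of at least 5 CPM. With 1 library per culture the difference between lineages was not tested, and both comparisons use the coculture library. On the log2 scale, the resistant ratio minus the sensitive ratio was 1.58 for BAMBI, 1.53 for ID3, 1.5 for ID1 and 1.34 for ID2. For the lower expressed SMAD6 and ID4 it was 1.02 and 0.81. For the receptors BMPR2 and BMPR1A it was 0.9 and 0.54, and for SMAD1 0.49. SMAD7 was the exception, since its interval in resistant cells included a ratio of 1.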

How the results depend on the processing

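No paired analysis was possible because each culture is 1 library and no replicate numbers join the groups, and no replicate could be left out. With 4, 0, 3 and 0 of the 10 genes past 2-fold between the sensitive populations, between the resistant populations, between the monocultures and within the coculture, the last count became 1 (BAMBI) with a pseudocount of 0.1 CPM, in G1 cells only, in cells with 2 or more transgene UMIs, without the deepest 10% of cells, with the mean of per-cell CPM and after correction for resistant-cell RNA. It was also 1 without coculture cells in clusters of the other lineage, an alternative chosen after seeing the data. A limit of 1.5-fold gave 5 genes between the sensitive populations, 0 between the resistant populations, 7 between the monocultures and 3 within the coculture. TMM scaling, median of ratios scaling and a pseudocount of 10 CPM took ID2 below 2-fold between the sensitive populations, leaving 3, while a pseudocount of 0.1 CPM added SMAD6 there, giving 5. A pseudocount of 10 CPM also took SMAD6 below 2-fold between the monocultures, leaving 2. Cells with 2 or more transgene UMIs added ID1 in that comparison, at a log2 ratio of -1.08, giving 4. No gene past 2-fold changed sign under any alternative. Between the sensitive populations ID1 ran from -1.25 to -1.13, ID3 from -1.35 to -1.22 and BAMBI from -1.44 to -1.02. Under their alternatives 102 log2 ratios moved beyond their counting error and 352 did not, 9 counts of genes moved and 40 did not, 5 level ratios moved and 19 did not, 45 correlations moved and 147 did not, and 76 shares of cells moved and 4 did not. SMAD6, ID4 and SMAD7 are limited by their low counts.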
